A study of Arabidopsis thaliana with 8 samples.

Results

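The UDP-glycosyltransferase (UGT) family of Arabidopsis thaliana was described in inflorescence stems of plants with altered ferulate/coniferaldehyde 5-hydroxylase (F5H), the cytochrome P450 of the step towards syringyl lignin. Members were all genes with a symbol beginning with UGT and a pair of digits, measured by a probe set that the platform annotation pairs with that gene alone. UGT84A and UGT72E genes, UGT75C1 and UGT78D1 were left out, which removed 7 measured genes. This gave 40 members of 13356 genes that could be named. Of the 58 UGT genes in the gene table, 11 had no probe set of their own in the annotation used, among them UGT74E2, UGT74F2, UGT75B1 and UGT75B2, and 4 of these lay on probe sets shared with another gene. Another 4 measured genes carry a UGT name only as a synonym (GT72B1, SGT, UF3GT and AT5G54010) and are not members.

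Stem RNA was hybridised to 8 single-colour Affymetrix arrays. There were 3 arrays of F5H-OE, a line labelled as overexpressing F5H, 2 of fah-1, labelled as the F5H loss-of-function line, and 3 of wild type (WT). All plants were of ecotype Columbia-0 and 1.5 months old, and each sample pooled the stems of 5 plants. The promoter behind the F5H-OE transgene and the number of independent lines were not given in the sources used here. The platform annotation paired F5H itself (AT4G36220) with 0 probe sets, of 1 gene or of several, so its level was not used to check the labels. Values are intensities per probe set on a linear scale. They depend on the probes as well as on the transcript, so fold changes compare arrays within 1 probe set. Where levels of different probe sets are ranked, summed or set against the background, they are a rough guide to transcript level.

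UGTs move a sugar, usually glucose from UDP-glucose, onto small molecules such as hormones, flavonoids, glucosinolate precursors, sterols and foreign compounds. The sugar commonly makes the acceptor more soluble and less active, and allows its storage in the vacuole. The family is also known for glucosides of monolignols and of hydroxycinnamic acids, among them products of UGT72E and UGT84A enzymes not covered here. Plant UGTs are sorted by protein sequence into lettered groups, and the members fell into groups D (7 genes), E (11), F (2), G (5), H (8), J (1) and L (5), with the sterol glucosyltransferase UGT80B1 apart from them. In gene order, 28 of the 40 lay in 12 runs of neighbouring members, at most 3 genes apart.

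Median intensity per array lay between 112 and 118. In F5H-OE replicate 1 the log2 values correlated less well with its own group (mean r = 0.987) than in the other 7 arrays (at least 0.991 each). The GAPDH control, whose 3′ signal exceeds its 5′ signal in degraded RNA, gave a log2 difference of 1.47 there and at most 0.853 elsewhere. Members whose call depends on this array are given with and without it. Of the stem marker lists, 3 of 24 secondary wall names could be matched (IRX10, IRX15 and IRX15-L), and some listed names stand for the same gene. Their summed intensities were 4520 to 5485 in F5H-OE, 3279 to 3427 in fah-1 and 4032 to 5379 in WT. The photosynthetic marker PRK (1 of 10) lay between 2773 and 3466 over the arrays, and the root markers PYK10 and EXPA7 (2 of 7) summed to 26.7 to 32.9, near the background. No flower, seed or silique marker could be named, and the phloem marker SWEET11 (1 of 5) is given with UGT76B1. In such bulk samples, fewer cells of a type and less RNA per cell cannot be told apart.

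Background was taken as the brightest of 3 control probe sets named TrpnX, made for a bacterial gene. It stood at log2 3.65 to 3.93 over the arrays. Of the 40 members, 35 were above it on all 8 arrays and 5 on some, and none was below it on every array. The 5 were UGT73C1 (2 arrays), UGT73C2 (4), UGT76E1 (6), UGT76E12 (1) and UGT84B2 (7), and their fold changes rest on values near the background. Some of the 35 also lay little above it, such as UGT76E11 (mean log2 4.11), UGT71C3 (4.27) and UGT73C7 (4.27). A mean log2 of at least 5 was reached by 24 of the 40 members.

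Setting F5H-OE against WT addressed which members differ in stems labelled as overexpressing F5H. UGT73B1 (AT4G34138, chromosome 4), a group D enzyme that glucosylates abscisic acid among other compounds in vitro, was the 1 member that changed, and it rose 3.32-fold. Its intensity was 377, 486 and 506 in the F5H-OE arrays, against 81.7, 152 and 204 in the WT arrays. Every F5H-OE array lay above every WT array, although the WT arrays themselves differed widely, with replicate 1 the lowest. The mean was 456 ± 69.7 in F5H-OE and 146 ± 61.5 in WT (SD, n = 3 each). The log2 fold change was 1.73 ± 0.30 (SE, limma adjusted p = 0.024, 95% interval 1.05 to 2.41), where a change was called at an adjusted p under 0.05 over all 22746 probe sets. Without F5H-OE replicate 1 it was 1.86 (adjusted p = 0.013). The call ended without F5H-OE replicate 2 (adjusted p = 0.073), without F5H-OE replicate 3 (0.101), without WT replicate 2 (0.077) and when the fit held just F5H-OE and WT (0.053), with log2 fold changes of 1.36 to 2.02 over all alternatives.

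**Figure D1:**
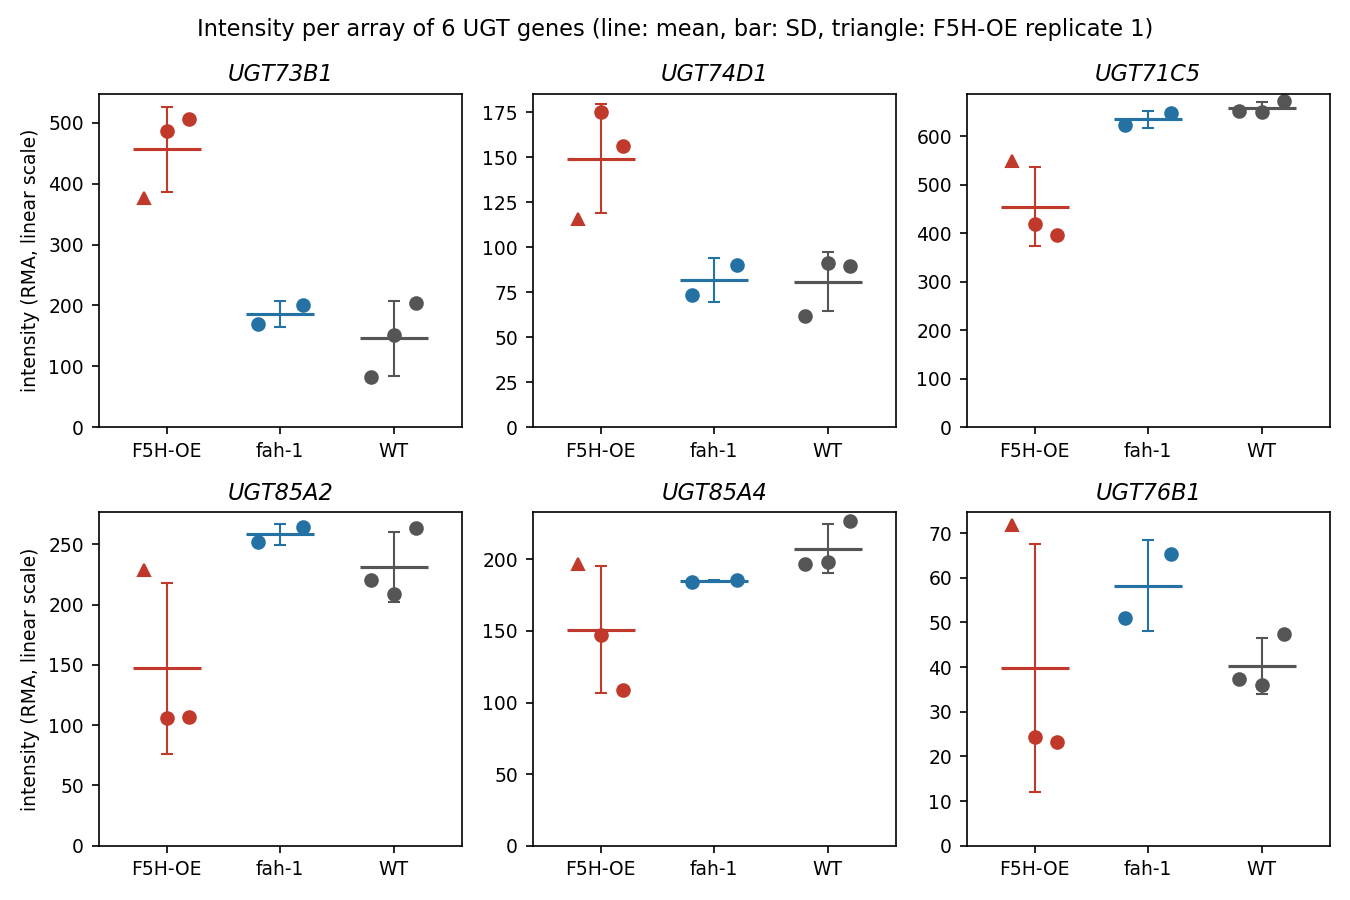
Intensity (RMA values on a linear scale, vertical axes from 0) of 6 UGT genes in every array of F5H-OE, fah-1 and WT. Points are arrays, triangles are F5H-OE replicate 1, lines are group means and bars SDs (n = 3, 2 and 3). UGT73B1 and UGT74D1 were higher in all F5H-OE arrays than in any other array and UGT71C5 lower, while in UGT85A2 and UGT76B1 F5H-OE replicate 1 lay far above the other F5H-OE arrays.

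UGT73B1 stands next to UGT73B3 and UGT73B2 in the genome. These share 1 probe set, which is outside the 40 members and was singled out after its values were seen. UGT73B2 is known as a flavonol glucosyltransferase, and UGT73B3 for a role in the response to Pseudomonas bacteria. The intensity of the shared probe set was 175, 136 and 186 in the F5H-OE arrays, against 49.2, 48.6 and 59.7 in the WT arrays. All F5H-OE values were more than 2-fold above the highest WT value. The means were 166 ± 26.4 in F5H-OE and 52.5 ± 6.22 in WT (SD, n = 3 each), a log2 fold change of 1.65 ± 0.14 (SE) or 3.14-fold, with a limma adjusted p of 0.0010. It passed in all 16 alternatives (adjusted p 0.00039 to 0.0077). Which of the pair contributes cannot be told apart on this probe set, and whether UGT73B1 transcripts also bind to it was not tested. The other shared UGT probe sets did not pass in F5H-OE against WT. That of UGT89B1 and AT1G73885 had a log2 fold change of -0.30 (limma adjusted p = 0.195). For UGT71D1 and AT2G29710 it was -0.11 (limma adjusted p = 0.759).

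The other 6 group D genes did not pass. UGT73B5, known with UGT73B3 from the same bacterial response, had 132, 82.9 and 84.6 in the F5H-OE arrays, against 75, 88.3 and 81.3 in the WT arrays, so that the groups overlapped. Its log2 fold change was 0.26 (limma adjusted p = 0.483), and the high value belonged to F5H-OE replicate 1. Its neighbour UGT73B4 differed by 0.16 on the log2 scale (adjusted p = 0.548). UGT73C7, UGT73D1 and the dim UGT73C1 and UGT73C2 had log2 fold changes between -0.17 and -0.02.

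UGT74D1 (AT2G31750) of group L, which glucosylates auxin and its oxidised form, had the second largest fold change of the 40. It had intensities of 116, 175 and 156 in the F5H-OE arrays, against 62.0, 91.3 and 89.4 in the WT arrays. The groups did not overlap, and the mean was 149 ± 30.4 in F5H-OE and 80.9 ± 16.4 in WT (SD, n = 3 each). The log2 fold change of 0.88 ± 0.20 (SE) just missed the threshold (limma adjusted p = 0.061). Without F5H-OE replicate 1 it was 1.05 and passed (limma adjusted p = 0.012). It also passed with array weights (0.0089), which count that same array least. Over the alternatives the adjusted p ran from 0.0089 to 0.204.

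The remaining group L genes gave small differences between F5H-OE and WT. UGT74B1, the S-glucosyltransferase of glucosinolate synthesis, had 1841, 1039 and 1185 in F5H-OE, against 1313, 1686 and 1033 in WT. The groups overlapped, with the highest value in F5H-OE replicate 1 and the lowest in WT replicate 3. The 95% interval of the log2 fold change ran from -0.54 to 0.53. UGT74F1, a salicylic acid glucosyltransferase, had a log2 fold change of -0.22 (limma adjusted p = 0.314). UGT84B1, which acts on auxin in vitro, had a log2 fold change of -0.05, and its dim neighbour UGT84B2 one of -0.17.

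UGT71C5 (AT1G07240) of group E, an abscisic acid glucosyltransferase, was the member with the smallest p below WT. Its intensity was 549, 420 and 397 in the F5H-OE arrays, against 652, 650 and 674 in the WT arrays. No values overlapped, and F5H-OE replicate 1 was the closest to WT. The mean was 455 ± 81.8 in F5H-OE and 659 ± 13.1 in WT (SD, n = 3 each), a log2 fold change of -0.55 ± 0.12 (SE, limma adjusted p = 0.056). Without F5H-OE replicate 1 it was -0.69 and passed (limma adjusted p = 0.0022). It also passed with array weights (0.0034), which count that same array least. Over the alternatives the adjusted p ran from 0.0022 to 0.189.

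The neighbours of UGT71C5 in the genome did not pass. UGT71C4 had 464, 460 and 485 in F5H-OE, against 384, 425 and 457 in WT, all F5H-OE values being higher, with a log2 fold change of 0.16 (limma adjusted p = 0.383). UGT71C3, the next in the run, had a log2 fold change of -0.37 and overlapping groups.

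The other group E genes also stayed short of the threshold. UGT71B6 and UGT71B8 belong to a set of abscisic acid glucosyltransferases, and with UGT71B1 they form a run on chromosome 3. Their log2 fold changes were -0.27, -0.15 and -0.23. UGT71B5 had 28.5, 27.6 and 29.7 in F5H-OE, against 28.2, 43.9 and 38.8 in WT, so that WT replicate 1 lay inside the F5H-OE range and the other WT arrays above it. It passed in 1 of 16 alternatives, without WT replicate 1, at a log2 fold change of -0.53 (limma adjusted p = 0.035; 0.035 to 0.591 over the alternatives). UGT88A1 was 1401, 1319 and 1240 in F5H-OE, against 1003, 1077 and 1209 in WT, with no overlap. At 0.27 on the log2 scale, its difference stayed short of the threshold (adjusted p = 0.188). UGT71C1, a lignan glucosyltransferase, had a log2 fold change of 0.10, and UGT71C2 and UGT72B3 had -0.05 and -0.04.

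UGT85A2 (AT1G22360) of group G showed how much rested on F5H-OE replicate 1. That array had 229, while F5H-OE replicates 2 and 3 had 106 and 107, against 220, 209 and 264 in the WT arrays. Replicate 1 lay inside the WT range, and the other F5H-OE arrays far below it. Over all arrays the log2 fold change was -0.74 (limma adjusted p = 0.215). Dropping F5H-OE replicate 1 moved it to -1.11, which passed (adjusted p = 0.0014; 0.0014 to 0.474 over the alternatives). UGT85A4 was 197, 147 and 109 in F5H-OE, against 197, 198 and 227 in WT, where F5H-OE replicate 1 reached the lowest WT value. Its log2 fold change was -0.50 (adjusted p = 0.228), or -0.71 without that array (adjusted p = 0.018). The genes UGT85A7, UGT85A5 and UGT85A3, which form a run with UGT85A2, had log2 fold changes of -0.16, 0.00 and -0.03.

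UGT76B1 (AT3G11340) of group H, which glucosylates isoleucic acid, salicylic acid and N-hydroxypipecolic acid in defence, showed the same split. F5H-OE replicate 1 had 71.7, and the other F5H-OE arrays had 24.3 and 23.2, against 37.3, 36.1 and 47.5 in WT. The F5H-OE arrays thus lay on both sides of all WT arrays. Over all arrays its log2 fold change was -0.22, with a 95% interval of -1.12 to 0.68 (limma adjusted p = 0.817). Without F5H-OE replicate 1 it was -0.75 and passed (adjusted p = 0.021), while without F5H-OE replicate 2 or 3 it was 0.03 and 0.06.

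The phloem marker SWEET11, a sucrose exporter, had an intensity of 576 in F5H-OE replicate 1, but 58.7 and 90.4 in the other 2 arrays of that line, with 528 and 619 in fah-1 and 312, 552 and 916 in WT. Its log2 fold change in F5H-OE against WT was -1.90 (limma adjusted p = 0.256). It was low in the same 2 arrays as UGT85A2 and UGT76B1. The GAPDH difference given above was high in the other F5H-OE array. The part of either in these results was not tested.

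The remaining group H genes included the cytokinin glucosyltransferases UGT76C1 and UGT76C2, neighbours on chromosome 5. UGT76C2 had 40.7, 69.4 and 59.9 in F5H-OE, against 66.6, 69.2 and 85.7 in WT, with F5H-OE replicate 1 the lowest and the groups overlapping. Its log2 fold change was -0.41 (limma adjusted p = 0.313). UGT76C1 had a log2 fold change of 0.08. UGT76D1, which acts on dihydroxybenzoic acids formed from salicylic acid, had -0.22 (adjusted p = 0.387), and UGT76E1, dim and known from hydroxylated jasmonates, -0.30 (adjusted p = 0.179). UGT76E2, UGT76E11 and UGT76E12 lay between -0.22 and 0.02.

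In groups F and J and the sterol branch, no gene passed between F5H-OE and WT. UGT78D2, the flavonoid 3-O-glucosyltransferase, had 220, 247 and 245 in F5H-OE, against 230, 277 and 240 in WT, which overlapped, with a 95% interval of the log2 fold change from -0.28 to 0.14. The flavonol arabinosyltransferase UGT78D3 had a log2 fold change of -0.16. UGT80B1 had 211, 217 and 195 in F5H-OE, against 182, 181 and 190 in WT, all higher in F5H-OE, by 0.17 on the log2 scale, short of the threshold (limma adjusted p = 0.262). UGT87A2, known for an effect on flowering time, had 277 in F5H-OE replicate 1, but 143 and 151 in the others, against 119, 179 and 171 in WT. Its log2 fold change of 0.24 turned to -0.07 without that array.

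**Figure D2:**
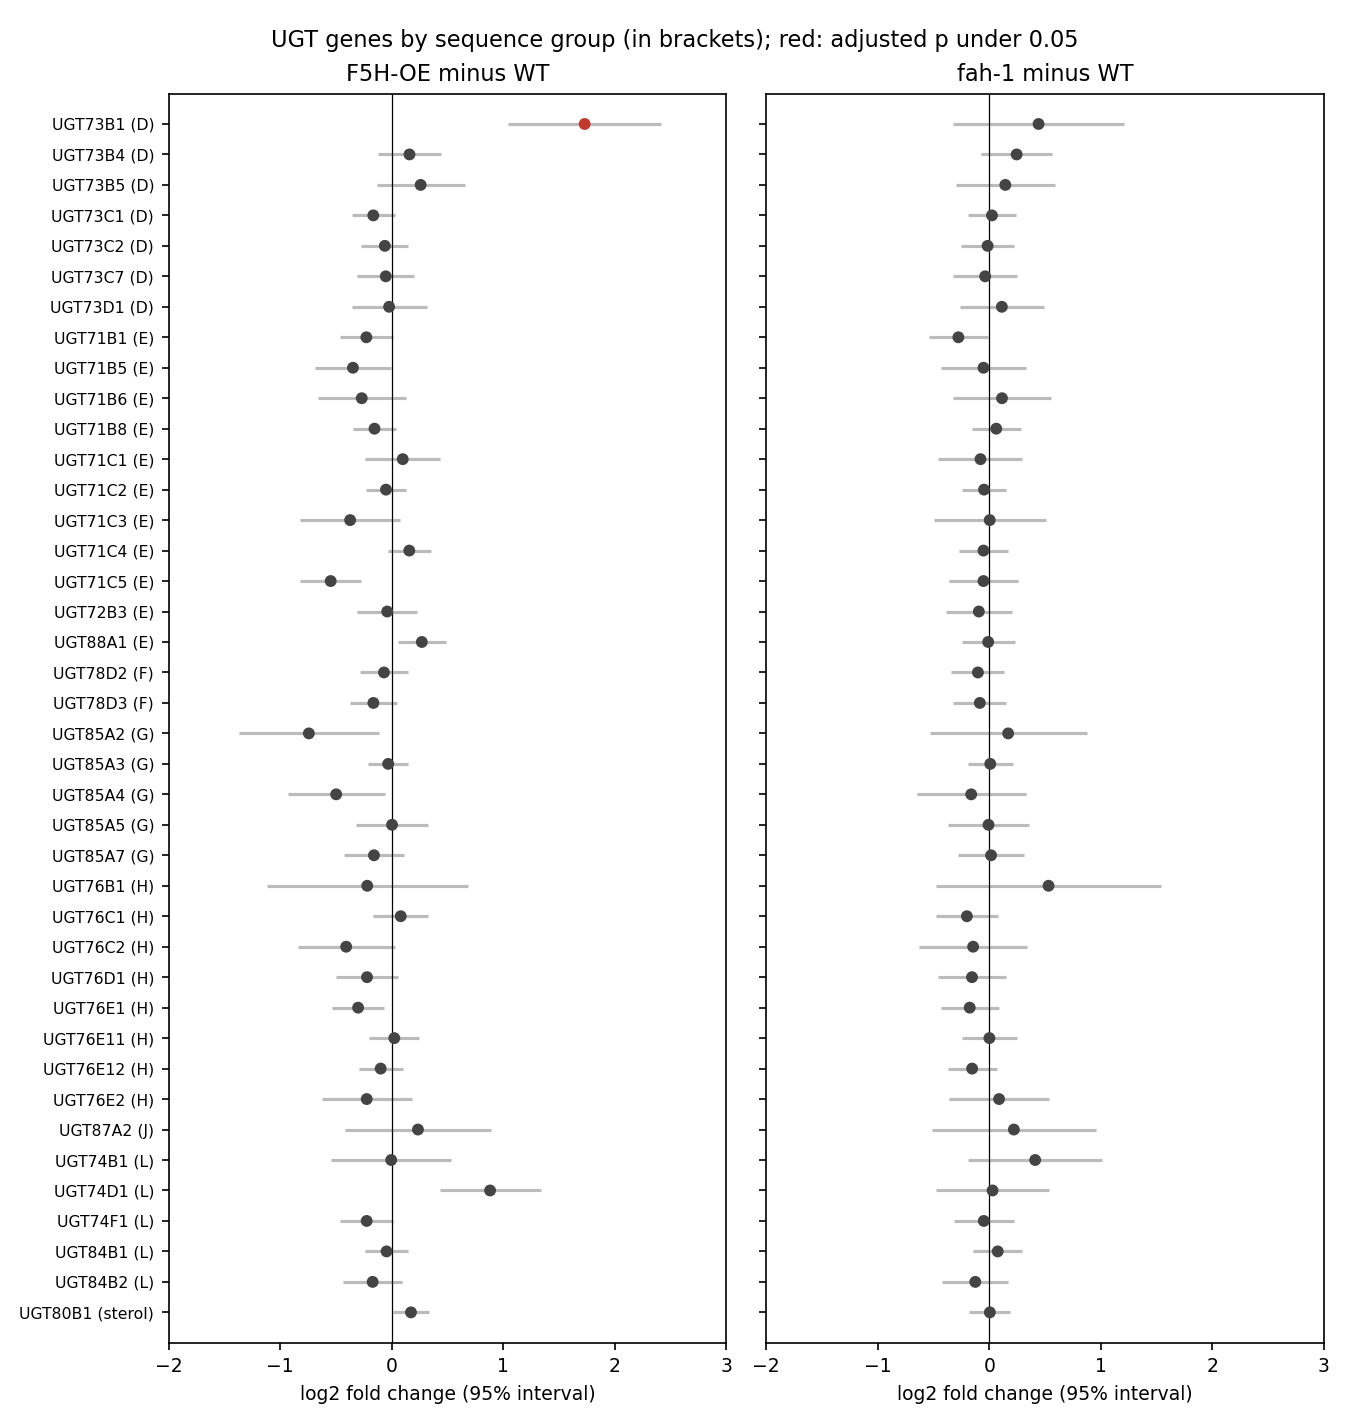
Log2 fold change with its 95% interval (limma, horizontal axes) of each of the 40 UGT genes, F5H-OE minus WT on the left and fah-1 minus WT on the right, ordered by sequence group. Red marks an adjusted p under 0.05, which is UGT73B1 in F5H-OE minus WT, at 1.73. Both panels use the same WT arrays.

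Across the family, 1 of 40 members (2.5%) was called in F5H-OE against WT by limma, as higher, and none as lower. Of all probe sets 2.65% were called, 1.29% as higher and 1.36% as lower. At an unadjusted p under 0.05 there were 9 members (22.5%), 4 higher and 5 lower, beside 17.5% of all probe sets. The groups did not overlap in 5 members that were higher in F5H-OE (12.5%, against 9.34% of all probe sets) and 3 that were lower (7.5%, against 11.7%). Members had a median log2 fold change of -0.07, against -0.02 over all probe sets. The members' counts lay near these shares of the whole array. Without F5H-OE replicate 1, 6 members passed, UGT73B1 and UGT74D1 higher and UGT71C5, UGT76B1, UGT85A2 and UGT85A4 lower, and 7.73% of all probe sets. With array weights, which gave that array a weight of 0.307, 5 of these passed (not UGT76B1), and 11.1% of all probe sets.

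**Figure D3:**
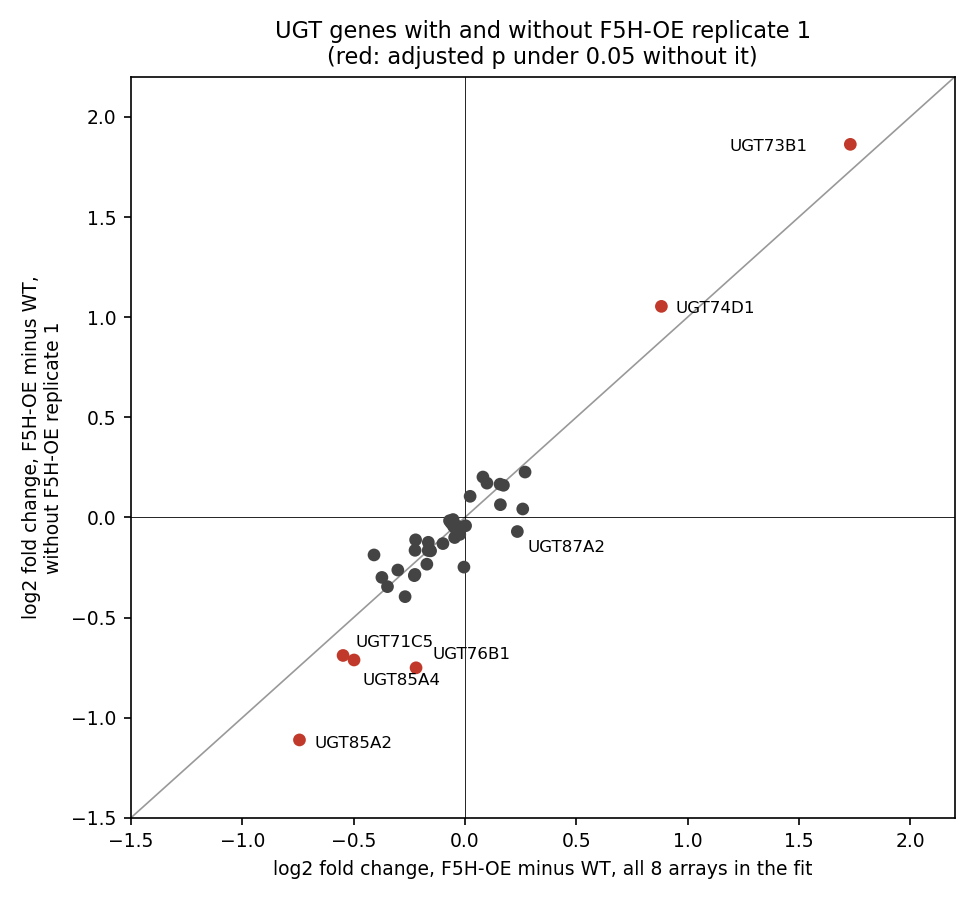
Log2 fold change of F5H-OE minus WT for the 40 UGT genes in the fit of all 8 arrays (horizontal) and in the fit without F5H-OE replicate 1 (vertical). The line marks equal values and red an adjusted p under 0.05 without that array. UGT76B1 lies farthest below the line, at -0.22 with all arrays and -0.75 without the replicate.

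F5H-OE replicate 1 differed from the other F5H-OE arrays (their mean) by more than 1 log2 unit in 2 members, UGT76B1 at 1.59 and UGT85A2 at 1.1 (5% of members, beside 2.7% of all probe sets). The next differences there were 0.92 for UGT87A2, 0.73 for UGT74B1 and -0.66 for UGT76C2. In the other 7 arrays, 1 such value occurred, UGT73B1 in WT replicate 1 at -1.11, an array in which 0.321% of all probe sets departed as far. The fah-1 arrays differed most in UGT87A2, at 145 and 222.

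**Figure D4:**
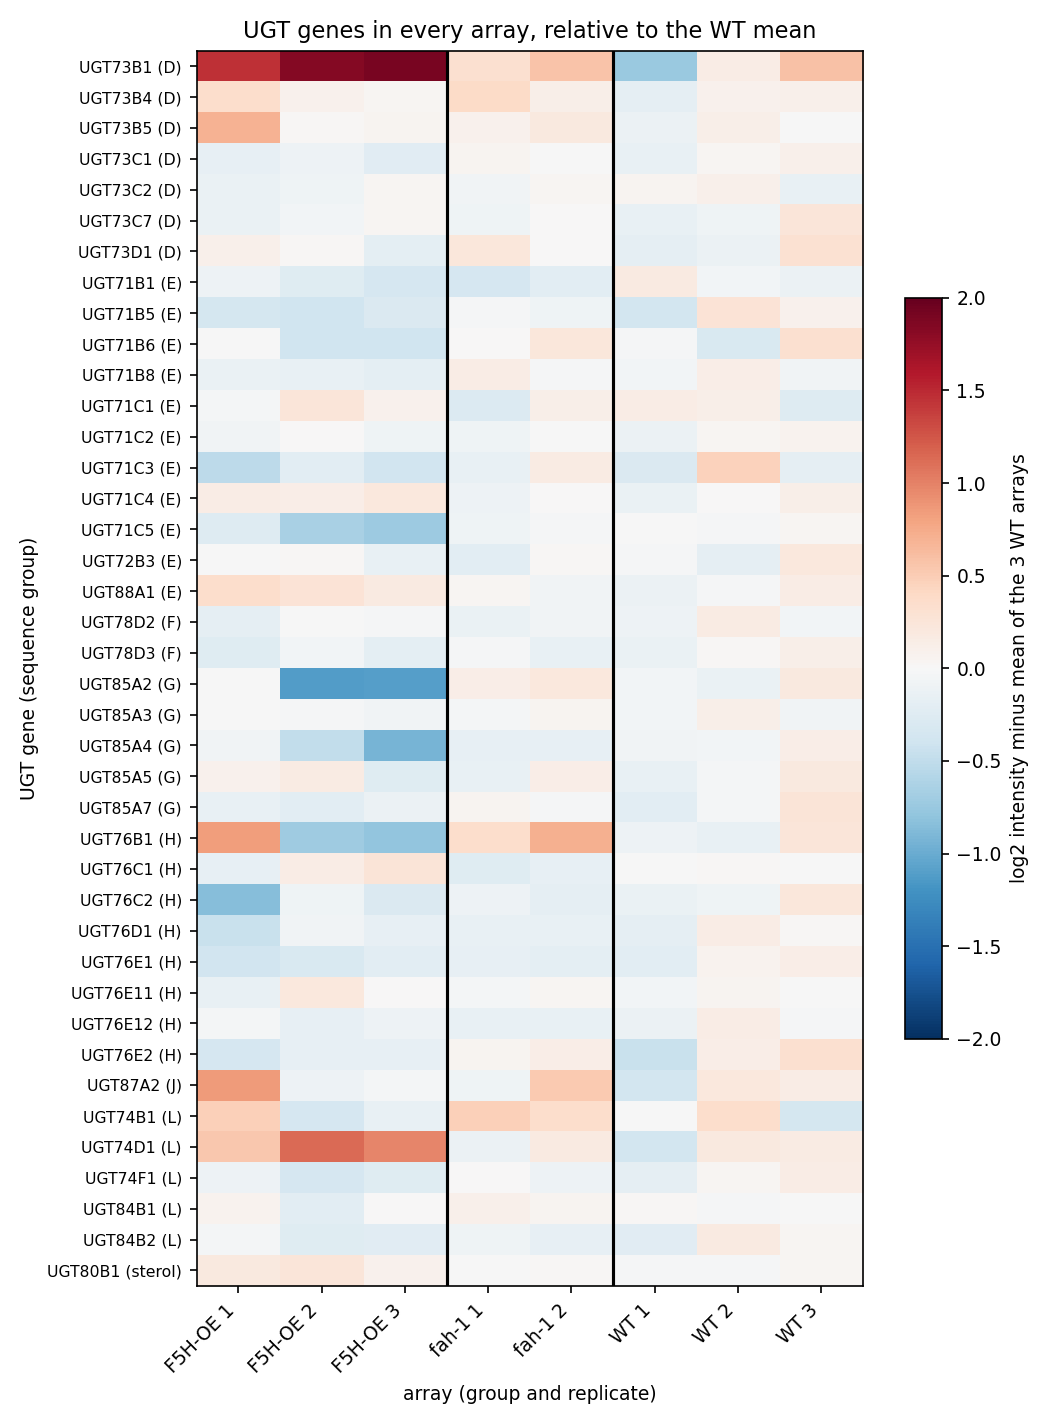
Log2 intensity of the 40 UGT genes in every array minus the mean of the 3 WT arrays, with genes in rows by sequence group and arrays in columns (F5H-OE, fah-1, WT). Red is higher and blue lower than the WT mean. UGT73B1 and UGT74D1 are red in the F5H-OE columns, and UGT85A2 and UGT76B1 are blue in F5H-OE replicates 2 and 3 but not in replicate 1.

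Setting fah-1 against WT addressed which members differ where F5H function is labelled as lost. No member passed by limma. UGT73B1 had 170 and 202 in the fah-1 arrays, against 81.7, 152 and 204 in the WT arrays, which enclose both fah-1 values. Its log2 fold change was 0.44, with a 95% interval from -0.32 to 1.21 (limma adjusted p = 0.970). The probe set shared by UGT73B2 and UGT73B3 had 53.8 and 63.9 in fah-1, against 49.2, 48.6 and 59.7 in WT, again with overlap, and differed by 0.17 on the log2 scale (adjusted p = 0.973).

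The largest differences from WT were UGT76B1 upwards and UGT71B1 downwards. UGT76B1 had 51.1 and 65.4 in fah-1, against 37.3, 36.1 and 47.5 in WT. Both fah-1 values were above all WT values, and the log2 fold change was 0.53, with a 95% interval from -0.48 to 1.54 (limma adjusted p = 0.973). UGT71B1 had 146 and 159 in fah-1, against 209, 178 and 170 in WT, all lower in fah-1, at a log2 fold change of -0.28 (adjusted p = 0.965). UGT74B1 had 1829 and 1679 in fah-1, against 1313, 1686 and 1033 in WT, a log2 difference of 0.41 (adjusted p = 0.970). UGT76C1 had 166 and 175 in fah-1, against 194, 200 and 194 in WT, all lower in fah-1, a log2 difference of -0.20 (adjusted p = 0.969).

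The members with the largest differences between F5H-OE and WT after UGT73B1 were also compared with WT in fah-1, and none passed. UGT71C5 had 623 and 648 in fah-1, against 652, 650 and 674 in WT, at a log2 fold change of -0.05 with a 95% interval from -0.36 to 0.25. UGT74D1 had 73.2 and 90.4 in fah-1, against 62.0, 91.3 and 89.4 in WT, at 0.03 with an interval from -0.48 to 0.54. UGT85A2 had 252 and 265 in fah-1, against 220, 209 and 264 in WT, at 0.17 with an interval from -0.53 to 0.87. UGT85A4 had 185 in both fah-1 arrays, against 197, 198 and 227 in WT, both lower in fah-1, at -0.16 with an interval from -0.65 to 0.33.

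In all, 0 of 40 members were called in fah-1 against WT by limma, beside 0.00879% of all probe sets, and 1 member (2.5%), UGT71B1, had an unadjusted p under 0.05, beside 5.02%. No member was past 1.5-fold either way. The groups did not overlap in 3 members higher in fah-1 (UGT73B4, UGT76B1 and UGT84B1, 7.5%, against 8.58% of all probe sets). They did not overlap in 5 lower ones (UGT71B1, UGT71C5, UGT76C1, UGT76E12 and UGT85A4, 12.5%, against 14.9%). Members had a median log2 fold change of -0.01, against -0.02 over all probe sets. The half-width of the 95% interval had a median of 0.30 over the members and ran from 0.18 to 1.01, the widest in UGT76B1, without adjustment for the number of probe sets.

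Setting F5H-OE against fah-1 compared the overexpressing line with the loss-of-function line directly. No member passed by limma. Of the 3 secondary wall markers, 1 was called (33.3%), as higher, beside 1.14% of all probe sets. This was IRX10, higher in F5H-OE than in fah-1 (limma adjusted p = 0.038), with the summed levels given above. No range over the alternatives is given for it. Against WT its log2 fold change was 0.10 in F5H-OE and -0.55 in fah-1. IRX15 and IRX15-L had -0.46 and -0.34 in fah-1 against WT, and none of these passed. The part of the wall markers in these results was not tested. UGT73B1 had 377, 486 and 506 in F5H-OE, against 170 and 202 in fah-1, with no overlap. It was 2.44-fold higher in F5H-OE by its log2 fold change of 1.29 ± 0.33 (SE), with a 95% interval from 0.52 to 2.05, but not past the threshold (limma adjusted p = 0.111). It passed when the fit held just F5H-OE and fah-1 (0.032) and with array weights (0.0048; 0.0048 to 0.437 over the alternatives). The probe set shared by UGT73B2 and UGT73B3 did pass, with 175, 136 and 186 in F5H-OE, against 53.8 and 63.9 in fah-1. It was 2.80-fold higher in F5H-OE, with a log2 fold change of 1.49 ± 0.16 (SE, limma adjusted p = 0.0037), and it passed in 14 of 15 alternatives (0.00055 to 0.059).

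The 3 highest log2 fold changes of the family here were those of UGT73B1, UGT74D1 and UGT76C1, and the 3 lowest those of UGT85A2, UGT76B1 and UGT71C5, from the same F5H-OE arrays that were set against WT. UGT74D1 had 116, 175 and 156 in F5H-OE, against 73.2 and 90.4 in fah-1, with no overlap and a log2 fold change of 0.85 (limma adjusted p = 0.112). UGT71C5 had 549, 420 and 397 in F5H-OE, against 623 and 648 in fah-1, again with no overlap, at -0.50 (adjusted p = 0.124). UGT85A2 had 229, 106 and 107 in F5H-OE, against 252 and 265 in fah-1, all lower in F5H-OE, at -0.91 (adjusted p = 0.203). UGT76B1 had 71.7, 24.3 and 23.2 in F5H-OE, against 51.1 and 65.4 in fah-1, at -0.75 (adjusted p = 0.454), the F5H-OE arrays lying on both sides of the fah-1 arrays. UGT76C1 had 175, 218 and 233 in F5H-OE, against 166 and 175 in fah-1, at 0.28 (adjusted p = 0.310).

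Without F5H-OE replicate 1, 5 members passed between F5H-OE and fah-1, beside 6.83% of all probe sets. They were UGT74D1 at a log2 fold change of 1.02 (limma adjusted p = 0.020) and UGT76C1 at 0.40 (0.031), both higher in F5H-OE, and UGT85A2 at -1.28 (0.0013), UGT76B1 at -1.28 (0.0039) and UGT71C5 at -0.64 (0.0046), lower in F5H-OE. With array weights 7 passed, beside 12.7% of all probe sets, the same 5 with UGT73B1 and UGT85A4. With all arrays 0 of 40 were called, beside 1.97% of all probe sets (1.14% higher and 0.835% lower), and 6 members (15%) had an unadjusted p under 0.05, 4 higher and 2 lower in F5H-OE, beside 15.7%. The groups did not overlap in 6 members higher in F5H-OE (15%, against 18.0% of all probe sets) and in 11 lower ones (27.5%, against 18.9%). Of the 11 group E genes, UGT71B5, UGT71B6, UGT71B8, UGT71C3 and UGT71C5 were among the lower ones and UGT71C4 and UGT88A1 among the higher ones, and the group's median log2 fold change was -0.004. The remaining lower ones, from other groups, were UGT73C1, UGT74F1, UGT76E1, UGT76E2, UGT85A2 and UGT85A7. Members had a median log2 fold change of -0.06, against -0.01 over all probe sets.

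Related lists were followed for the reactions around UGTs. Beta-glucosidases of the BGLU family, which remove glucose from glucosides, had 20 measured genes. Some lay near the background. BGLU24 and BGLU32 were above the TrpnX level on 0 arrays, BGLU31 and BGLU36 on 1, BGLU29 on 4, and BGLU27 and BGLU28 on 6. Between F5H-OE and WT, 1 of the 20 rose (5%, beside 1.29% of all probe sets) and 0 fell. This was BGLU41, at 71 ± 10.0 in F5H-OE and 33.7 ± 6.34 in WT (SD, n = 3 each), a log2 fold change of 1.08 (limma adjusted p = 0.012; 0.00094 to 0.056 over the alternatives). None was called between fah-1 and WT. Between F5H-OE and fah-1, BGLU41 (log2 fold change 1.14, limma adjusted p = 0.018) and BGLU33 (0.50, adjusted p = 0.032) were higher in F5H-OE, 2 of 20 (10%, beside 1.14% of all probe sets). The calls of BGLU41 against WT and against fah-1 rest on the same F5H-OE arrays. BGLU33 stood at 1281 ± 32.2 in F5H-OE (SD, n = 3), 906 ± 101 in fah-1 (SD, n = 2) and 1269 ± 39.0 in WT (SD, n = 3). Against WT its log2 fold change was 0.01 in F5H-OE (limma adjusted p = 0.951) and -0.49 in fah-1 (0.898). Both calls between F5H-OE and fah-1 ended in some alternatives (adjusted p up to 0.213 for BGLU41 and 0.241 for BGLU33). BGLU45 and BGLU46, which act on monolignol glucosides, had log2 fold changes of 0.14 and 0.28 in F5H-OE against WT (adjusted p = 0.690 and 0.345).

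The supply of nucleotide sugars could be followed through 1 gene, USP, a UDP-sugar pyrophosphorylase. The list held 33 names, not all of different genes. It had 698, 784 and 753 in F5H-OE, against 621, 582 and 528 in WT, all higher in F5H-OE, by 0.37 on the log2 scale, short of the threshold (limma adjusted p = 0.089). In fah-1 it had 572 and 498, -0.11 from WT on the log2 scale (adjusted p = 0.973). No gene with a symbol beginning with ABCC, the transporter class that carries conjugates into the vacuole, was found among the named genes. Synonyms were not searched for this class.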

How the data were processed

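The deposited files hold 1 intensity per probe set and array, on a linear scale between 6.62 and 19683. The submitters' processing notes name RMA with no version, a method whose usual output is log2. The chip definition and filters were not given in the sources used here. Such processing nearly equalises the arrays, so a shift of most transcripts would not show. Here log2 of the intensity was taken with no pseudocount, and 64 control probe sets were left out of 22810. Of the rest, 13513 had 1 gene, 503 several. Symbols were updated through gene identifiers of the TAIR10.1 gene table. All 40 members had 1 probe set each.

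Samples were grouped by their labels and are named there as biological replicates. One limma 3.58.1 model (R 4.3.3) held the 3 group means over all 8 arrays, with moderated 2-sided tests and Benjamini-Hochberg adjustment across 22746 probe sets. The script was tested on simulated data that gave every array the same spread, so a departing array such as F5H-OE replicate 1 was not covered. Tried beside the main model were array weights, each array left out in turn, models of 2 groups, a block for replicate number and recentring. So were quantile normalization, a pseudocount of 16, removal of dim probe sets, and a trended or robust variance. Named genes were, by comparison, members past the threshold and, up and down, the 6 of smallest p, with the 6 brightest and 4 dimmest and those with a textbook substrate (17 of 33 measured), 30 in all. Others were added to complete the family. The members and lists were chosen with earlier results of these data known, and the TrpnX level too. Sequences are not shown.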

Additional observations from a re-analysis of the deposited data

How the results depend on the processing

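The count of called members in F5H-OE against WT, 1 in the fit of all arrays, was 0 in a fit of these 2 groups alone, 5 with array weights and 2 under a replicate block, and 0 to 6 with 1 array left out. Between F5H-OE and fah-1 the count was 0, but 1 in a fit of these 2 groups, 7 with array weights, 1 with the block and 0 to 5 with 1 array left out. In fah-1 against WT it was 0 in all 15 alternatives. The replicate block added UGT74D1, at an adjusted p of 0.011 against WT and 0.033 against fah-1. Over all probe sets the calls in F5H-OE against WT numbered 603, or 401 with the block, 379 in the fit of 2 groups, 2526 with array weights and 237 to 1758 with 1 array left out. Whether equal replicate numbers pair the samples was not settled. Deviations from the group mean correlated at 0.172, 0.333 and -0.025 for equal numbers between F5H-OE and WT. With the other WT arrays, F5H-OE replicate 1 had -0.248 and 0.047 and replicate 2 had -0.245 and -0.049. F5H-OE replicate 3 had -0.006 and 0.034, and correlated best with WT replicate 2. Where the sign of a member differed between settings, as in 32 gene and setting pairs in F5H-OE against WT, 54 in fah-1 against WT and 41 between the lines, neither value was past the threshold. Leaving out a fah-1 array leaves 1, assumed to vary like the other groups. The dimmest probe set of a gene was not run, since no member has several. Applying the alternatives to the shared probe set of UGT73B2 and UGT73B3 was chosen after seeing the data. The cause of these differences was not tested.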
